A study of Homo sapiens with 6 samples.

Results

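The genes described here encode proteins that cut, protect or cross-link the extracellular matrix or cut proteins at the cell surface: matrix metalloproteinases (MMPs), ADAM and ADAMTS proteases, the ADAMTS-like proteins, the tissue inhibitors of metalloproteinases (TIMPs) and Reck, the plasminogen activators with their receptor and an inhibitor, 2 HtrA proteases and 4 lysyl oxidases. They were taken by symbol: every row named Mmp, Adam, Adamts, Adamtsl or Timp with a number and at most 1 letter after it, together with 11 named genes, Plau, Plat, Plaur, Serpine2, Htra1, Htra3, Reck, Lox, Loxl1, Loxl2 and Loxl3. This gave 96 of the 38986 gene symbols in the files.

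RNA was sequenced from 6 libraries, 3 labelled STAT6 and 3 labelled Mock. Per the labels, both groups are mCherry-positive 293T cells, a human embryonic kidney line, and the first overexpress wild-type STAT6, a transcription factor that answers interleukin 4 and interleukin 13, while the controls are Mock cells with the genotype WT. The study asked how STAT6 acts on mitochondrial gene expression. Nothing in the labels ties the numbered libraries to separate cultures; the p-values then speak only of the spread among these libraries, possibly a technical one.

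The contents of the files depart from the labels, and this bears on every direction given here. The symbols are mouse symbols: of the 96 members 0 equal a human symbol in the same case, 82 do so in capitals, and 14, among them Mmp1a, Mmp1b, Adam24 and Adam26a, have no human symbol at all. Stat6 had 33.6 ± 1.53 CPM (counts scaled to library size) in the STAT6-labelled libraries and 94.5 ± 1.49 CPM in the Mock-labelled ones (SD, n = 3 each), so it was lower where the label says overexpressed (log2 fold change -1.49, edgeR adjusted p = 7.47e-26). The 10 pigment cell markers summed to 17360 to 17510 CPM in the STAT6-labelled libraries and 15020 to 15380 CPM in the Mock-labelled ones. They went both ways: Tyrp1, Dct, Sox10, Mitf and Slc45a2 were higher in the STAT6-labelled libraries, and Tyr, Pmel and Oca2 lower. Mlana and Slc24a5 did not pass (edgeR, adjusted p under 0.05). Tyr had a mean of 29.1 CPM in the STAT6-labelled libraries, against 303 CPM in the Mock-labelled ones. In contrast, 9 of 10 markers of kidney epithelium and the 293 lineage had at most 1 count per library on average, with Epcam and Pax8 at 0. Groups are therefore called by their labels alone. Library totals ran from 19894773 to 23648304 counts in the STAT6-labelled libraries and from 22368757 to 29802693 in the Mock-labelled ones.

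Matrix turnover depends on a balance of enzymes and brakes. MMPs cut collagens, laminins and other matrix proteins, and those with a membrane anchor do so at the cell surface. ADAMs mostly shed the outer parts of membrane proteins, ADAMTS enzymes cut proteoglycans and trim procollagens, and TIMPs block all of these to differing degrees. Plasminogen activators make plasmin, which cuts fibrin and activates other proteases, and lysyl oxidases join collagen and elastin chains into stable fibres. In pigment cells and melanoma these genes are best known for their part in invasion and in the migration of melanoblasts through the skin.

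Much of the set was too weakly expressed to test: 42 of the 96 members passed a filter on low counts, another 42 had at least 1 count somewhere, and 12 had none. Of the 42 tested, 24 were higher and 8 lower in the STAT6-labelled libraries, and 10 did not pass (edgeR, adjusted p under 0.05 over all 12938 genes tested). Since 72.6% of all tested genes were called, the 76.2% called among the members is close to that background. Higher calls made up 57.1% of the tested members, against 35.8% of all tested genes, and lower calls 19.0%, against 36.8%. The members were chosen with earlier results of these data known, so part of any excess in this paragraph may reflect that choice. Of the genes added by name, every tested one was called. Plau, Plat, Serpine2, Htra3, Reck, Loxl2 and Loxl3 were higher, and Plaur was lower. Changes of at least 2-fold were found in 17 members on the higher side (40.5%, against 10.6% of all tested genes) and in 5 on the lower side (11.9%, against 4.96%). A stricter test, for a change beyond 1.5-fold, called 19 of the 42 tested members higher and 6 lower (edgeR, adjusted p under 0.05). Among all 12938 tested genes it called 1807 higher (14.0%) and 972 lower (7.51%). The groups did not overlap in 34 of the 42 (81.0%, against 74.6%). The median log2 fold change was 0.53 over the tested members and -0.00 over all tested genes.

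These shares describe the members that passed the filter and are no measure of the whole set, because a gene that passes through the group where it is high must differ. This was the case for 7 members, with a mean under 0.443 CPM in the other group: Htra3, Plau, Mmp19, Mmp28 and Timp4 were low in the Mock-labelled libraries, and Adam12 and Adamts9 in the STAT6-labelled ones. Without them 19 of 35 were higher (54.3%) and 6 lower (17.1%), with 12 (34.3%) and 3 (8.57%) at least 2-fold. The shares of all tested genes given above still include genes that passed in this way. Reads of all 96 members together came to 2399, 2415 and 2420 CPM in the STAT6-labelled libraries, against 1470, 1490 and 1481 CPM in the Mock-labelled ones. That sum counts reads, so long and abundant transcripts weigh most in it, and in bulk RNA fewer cells that make a transcript cannot be told apart from less of it per cell. Adamts1 made up 32.8%, Adam10 18.2% and Adamtsl5 16.3% of the net difference of 931 CPM, so the sum says little of the other members.

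**Figure D1:**
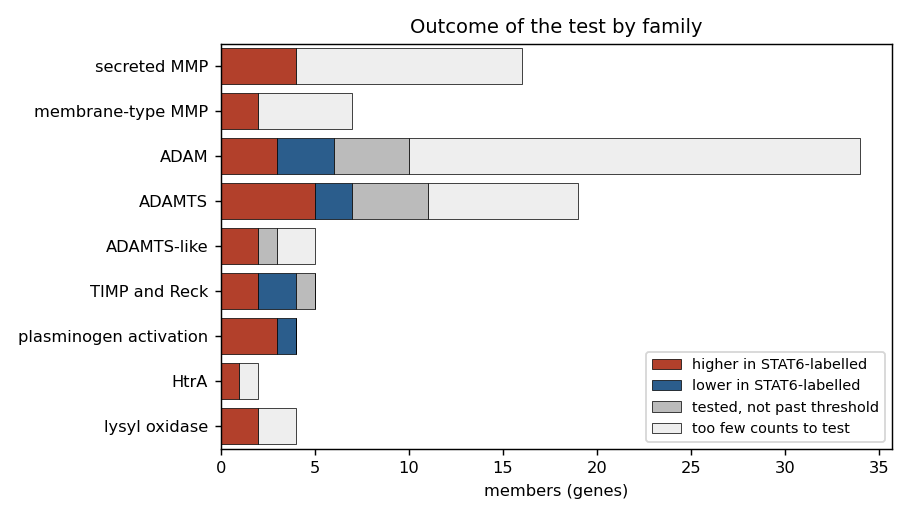
Number of members (horizontal axis) in each family, split into those higher or lower in the STAT6-labelled libraries, those tested but not past the threshold, and those with too few counts to test. The 4 tested secreted MMPs and both tested membrane-type MMPs are on the higher side, the 10 tested ADAMs divide into 3 higher, 3 lower and 4 not past, and 24 of 34 ADAMs were not tested. Of the secreted MMPs, Mmp19 and Mmp28 passed the filter only through the STAT6-labelled libraries. For comparison, 35.8% of all tested genes were higher and 36.8% lower, and the split of the ADAMs is near these shares.

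All 4 tested of the 16 secreted MMPs and both tested of the 7 membrane-type MMPs were higher in the STAT6-labelled libraries. Of all tested genes 35.8% were higher. Mmp19 and Mmp28 passed the filter only through the STAT6-labelled libraries, so their calls say nothing of the family. Mmp15, which encodes the membrane-anchored MT2-MMP, was at 28.5, 29.9 and 31.7 CPM in the STAT6-labelled libraries, against 0.911, 0.905 and 1.31 CPM in the Mock-labelled ones. The lowest of the first group stood far above the highest of the other, a 28.0-fold difference (log2 fold change 4.81, SE 0.11, adjusted p = 5.31e-29, edgeR). Its better known relative Mmp14 (MT1-MMP), a collagenase of the cell surface that also activates pro-MMP2, had 325, 330.3 and 331 CPM in STAT6-labelled libraries, against 270.5, 296 and 289 CPM in Mock-labelled ones. The groups were again apart, but the difference was small (log2 fold change 0.20, SE 0.03, adjusted p = 9.26e-07, edgeR).

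Among secreted MMPs, Mmp2, the gelatinase that MT1-MMP activates, had 5.83, 5.98 and 6.27 CPM in the STAT6-labelled libraries, against 1.39, 0.862 and 1.34 CPM in the Mock-labelled ones. No values overlapped, and the log2 fold change was 2.31 (SE 0.18, adjusted p = 5.19e-14, edgeR). The other secreted MMPs that changed were of low abundance. Mmp19 had 85, 69 and 78 counts in the STAT6-labelled libraries, against 3, 5 and 7 counts in the Mock-labelled ones (log2 fold change 4.20, SE 0.28, edgeR adjusted p = 1.77e-15). Mmp28, or epilysin, had 67 counts over the STAT6-labelled libraries and 2 over the Mock-labelled ones, a ratio of 40.9 with an exact 95% counting interval of 10.9 to 344 (edgeR adjusted p = 3.16e-09). Mmp11, or stromelysin 3, which furin activates inside the cell, had 39, 43 and 32 counts in STAT6-labelled libraries, against 20, 9 and 18 in Mock-labelled ones (log2 fold change 1.56, SE 0.29, edgeR adjusted p = 1.01e-05). Each of these 3 genes was higher in every STAT6-labelled library than in any Mock-labelled one.

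The classical secreted collagenases, stromelysins and matrilysin were all but missing. Mmp1b and Mmp7 had no count in any library, and Mmp1a, Mmp3, Mmp8, Mmp10, Mmp12, Mmp13, Mmp20, Mmp21 and Mmp27 each had fewer than 10 counts over all 6. Mmp9, the second gelatinase, had 3, 2 and 4 counts in the STAT6-labelled libraries, against 0, 1 and 1 in the Mock-labelled ones, a ratio of 5.49 with a counting interval of 1.14 to 52.2. That interval leaves out the spread between libraries, and with no filter on low counts Mmp9 did not pass (adjusted p = 0.137, edgeR). Of the membrane-type genes that were not tested, Mmp17 had 7, 6 and 12 counts in STAT6-labelled libraries, against 4, 11 and 11 in Mock-labelled ones, and Mmp23 had 13, 3 and 12 in STAT6-labelled libraries, against 6, 3 and 7 in Mock-labelled ones, so that the groups overlapped in both. Mmp16, Mmp24 and Mmp25 had fewer than 10 counts each.

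**Figure D2:**
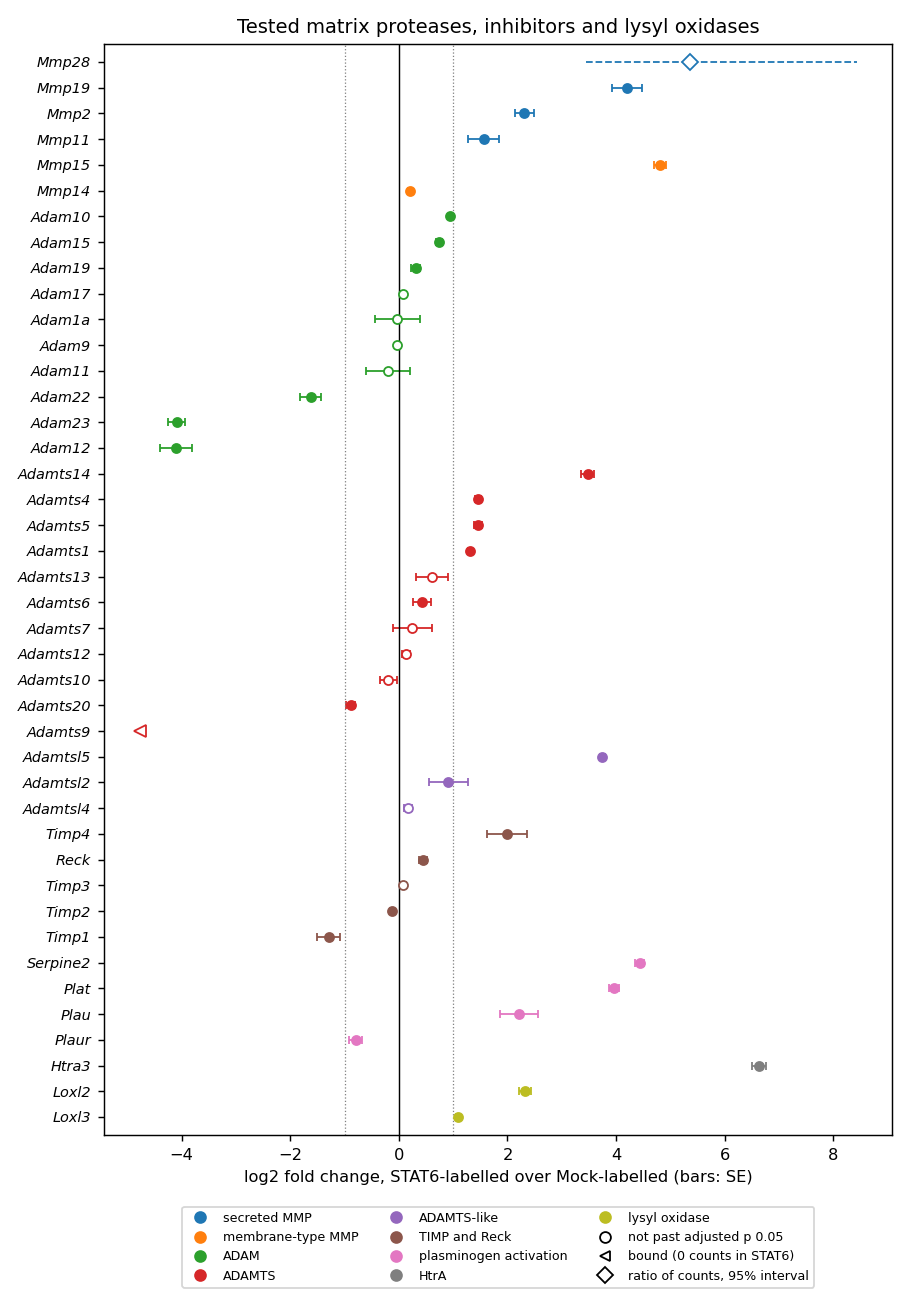
Log2 fold change (STAT6-labelled over Mock-labelled) of the 42 tested members, by family, with bars for the SE; open circles did not pass the threshold, and dotted lines mark 2-fold. Adamts9, without a count in the STAT6-labelled libraries, is drawn at its bound and Mmp28, with 2 counts in the Mock-labelled ones, at its ratio of counts with the 95% interval; Htra3 lies farthest to the right of the fitted values, at 6.63, and Adam12 and Adam23 farthest to the left, near -4.10.

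ADAM genes went both ways, with 3 higher and 3 lower of 10 tested, near the 35.8% and 36.8% of all tested genes. Adam10, Adam15 and Adam19, which encode active proteases, were higher, while the active protease gene Adam12 was lower, as were Adam22 and Adam23, whose proteins have lost the catalytic site and act as neuronal receptors for LGI proteins. Adam12 passed the filter only through the Mock-labelled libraries. Adam10, the sheddase that cuts Notch receptors, cadherins and the amyloid precursor, had 356, 352.5 and 347 CPM in the STAT6-labelled libraries, against 183, 186 and 179 CPM in the Mock-labelled ones. The groups were far apart relative to their spread (log2 fold change 0.95, SE 0.03, adjusted p = 1.45e-24, edgeR). Adam15 was higher too (log2 fold change 0.74, SE 0.06, adjusted p = 1.86e-13, edgeR) and so was Adam19, or meltrin beta (0.31, SE 0.09, adjusted p = 0.00244, edgeR).

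Adam17, the sheddase of tumour necrosis factor and of several EGF receptor ligands, had 87.0, 87.6 and 87.3 CPM in STAT6-labelled libraries, against 85.2, 80.8 and 81.4 CPM in Mock-labelled ones. Its groups did not overlap, yet the log2 fold change of 0.08 (SE 0.04) did not pass (adjusted p = 0.0531, edgeR; 0.0349 to 0.849 over the alternatives). Adam9, another widely expressed sheddase, had 288, 293 and 289 CPM in STAT6-labelled libraries, against 305, 292 and 293 CPM in Mock-labelled ones, and these values overlapped. Its log2 fold change was -0.03 (SE 0.03, adjusted p = 0.382, edgeR), or -0.10 with library totals alone, where it passed as lower (adjusted p = 0.00351, edgeR).

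On the lower side, Adam23 had 0.777, 0.721 and 0.980 CPM in the STAT6-labelled libraries, against 13.8, 13.2 and 15.4 CPM in the Mock-labelled ones. There was no overlap (log2 fold change -4.09, SE 0.15, adjusted p = 2.96e-23, edgeR). Adam12, or meltrin alpha, had 3, 6 and 4 counts in STAT6-labelled libraries, against 81, 91 and 106 counts in Mock-labelled ones (log2 fold change -4.10, SE 0.29, adjusted p = 8.51e-15, edgeR). Adam22 had 28, 24 and 34 counts in STAT6-labelled libraries, against 82, 110 and 133 counts in Mock-labelled ones (log2 fold change -1.62, SE 0.19, adjusted p = 2.42e-09, edgeR). In all 3 genes each STAT6-labelled library was below each Mock-labelled one. Adam11, another ADAM without a catalytic site, had 12, 6 and 13 counts in STAT6-labelled libraries, against 6, 11 and 27 in Mock-labelled ones, which overlapped (adjusted p = 0.671, edgeR), and so did Adam1a, at 6, 19 and 7 counts in STAT6-labelled libraries, against 10, 15 and 15 in Mock-labelled ones (adjusted p = 0.955, edgeR). Reads of Adam1a may be shared with its near copy Adam1b, which had 1 count.

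Many mouse ADAM genes are known mainly from the testis. No count at all was found for 8 of the 34 ADAM genes: Adam2, Adam24, Adam26a, Adam28, Adam29, Adam34, Adam34l and Adam6a. The untested ADAMs with at least 10 counts in all were Adam4, Adam5, Adam8, Adam21, Adam32 and Adam33. Adam5 had 8, 5 and 9 counts in the STAT6-labelled libraries, against 0, 0 and 4 in the Mock-labelled ones, and with no filter on low counts it was the only 1 of the 42 untested members with a count to pass (adjusted p = 0.00335, edgeR). Adam8, a leukocyte ADAM, had 14, 8 and 9 counts in STAT6-labelled libraries, against 8, 4 and 10 in Mock-labelled ones, and Adam4 had 4, 8 and 9 in STAT6-labelled libraries, against 7, 13 and 13 in Mock-labelled ones. Adam4 overlapped between the groups also as CPM, whereas Adam8 did not once scaled to library size, at 0.605, 0.412 and 0.441 CPM in STAT6-labelled libraries, against 0.347, 0.172 and 0.327 CPM in Mock-labelled ones. Adam33 had 6, 0 and 6 counts in STAT6-labelled libraries, against 2, 1 and 1 in Mock-labelled ones. Adam21 had 2, 1 and 6 counts in STAT6-labelled libraries, against 0, 0 and 3 in Mock-labelled ones, and Adam32 had 0, 3 and 2 in STAT6-labelled libraries, against 1, 2 and 2 in Mock-labelled ones. These 3 overlapped, and the 10 others with a count, Adam18, Adam1b, Adam20, Adam25, Adam26b, Adam3, Adam30, Adam39, Adam6b and Adam7, had fewer than 10 counts each.

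Adamts1, Adamts4 and Adamts5, which cut large proteoglycans, rose, and 2 of their relatives fell. Adamts1, which cuts aggrecan and versican, had 515, 512 and 510.0 CPM in the STAT6-labelled libraries, against 204, 211 and 205 CPM in the Mock-labelled ones. This was a 2.48-fold difference (log2 fold change 1.31, SE 0.03, adjusted p = 2.04e-29, edgeR), and the SD was 2.61 CPM among STAT6-labelled libraries and 3.48 CPM among Mock-labelled ones (n = 3 each). The aggrecanases Adamts4 and Adamts5 were higher as well. Adamts4 had 55.9, 54.1 and 58.6 CPM in STAT6-labelled libraries, against 18.5, 21.4 and 21.0 CPM in Mock-labelled ones (log2 fold change 1.46, SE 0.06, adjusted p = 1.03e-22, edgeR). Adamts5 had 21.4, 22.2 and 21.6 CPM in STAT6-labelled libraries, against 8.33, 8.10 and 7.33 CPM in Mock-labelled ones (log2 fold change 1.46, SE 0.08, adjusted p = 2.31e-18, edgeR). In none of the 3 did the groups overlap.

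Adamts20 and Adamts9 also cut versican, and both were lower. Adamts20, whose loss in mice gives the unpigmented belt of the belted mutant, a melanoblast defect, had 9.89, 9.84 and 9.70 CPM in the STAT6-labelled libraries, against 18.5, 16.9 and 19.0 CPM in the Mock-labelled ones. The groups were apart (log2 fold change -0.89, SE 0.08, adjusted p = 2.37e-12, edgeR). Adamts9 had no count in any STAT6-labelled library and 27, 35 and 38 counts in the Mock-labelled ones. With its group sum taken at the limit of 3 counts that a count of 0 allows, it was at least 27.3-fold lower (adjusted p = 8.76e-11, edgeR).

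Adamts14, an N-proteinase that trims fibrillar procollagens, had 19.1, 19.1 and 17.8 CPM in the STAT6-labelled libraries, against 1.65, 1.38 and 1.93 CPM in the Mock-labelled ones. The difference was 11.1-fold without overlap (log2 fold change 3.47, SE 0.12, adjusted p = 2.35e-24, edgeR). The other enzymes of this activity were scarce: Adamts2 had 3, 7 and 4 counts in STAT6-labelled libraries, against 0, 3 and 2 in Mock-labelled ones, and Adamts3 had 1 count in all.

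Of the remaining tested ADAMTS genes, Adamts6 alone passed. Adamts12, which cuts cartilage oligomeric matrix protein, had 20.7, 21.5 and 22.8 CPM in STAT6-labelled libraries, against 20.1, 21.7 and 17.9 CPM in Mock-labelled ones, with overlap (log2 fold change 0.13, SE 0.07, adjusted p = 0.0849, edgeR). Adamts6 passed at 0.42 on the log2 scale (SE 0.17, adjusted p = 0.0226, edgeR), but without STAT6 replicate 3 or Mock replicate 3 it was 0.28 and did not pass (adjusted p = 0.189 and 0.182). Adamts10 (-0.19), Adamts7 (0.25) and Adamts13 (0.61), the enzyme that cuts von Willebrand factor, did not pass, at adjusted p of 0.251, 0.530 and 0.0602 (log2 fold changes, edgeR). Adamts17 had 10 counts over the 6 libraries, and Adamts8, Adamts15, Adamts16 and Adamts19 had fewer, while Adamts18 had none.

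ADAMTS-like proteins share the matrix-binding part of the ADAMTS enzymes without the protease, and several bind fibrillin microfibrils. Adamtsl5 was at 163, 164 and 166 CPM in the STAT6-labelled libraries, against 11.1, 11.9 and 13.4 CPM in the Mock-labelled ones. This 13.4-fold difference had the smallest adjusted p of all members (log2 fold change 3.75, SE 0.05, adjusted p = 2.93e-36, edgeR). Adamtsl4 had 13.4, 12.2 and 13.2 CPM in STAT6-labelled libraries, against 11.7, 11.7 and 11.2 CPM in Mock-labelled ones, close together but not overlapping (log2 fold change 0.17, adjusted p = 0.0593, edgeR). Adamtsl2 passed at 0.91 on the log2 scale (SE 0.36, adjusted p = 0.0228, edgeR) on 25, 9 and 19 counts in STAT6-labelled libraries, against 11, 10 and 13 in Mock-labelled ones, where the groups overlap. Its call was lost without STAT6 replicate 1 (log2 fold change 0.65, adjusted p = 0.174), STAT6 replicate 3 (0.0783) or Mock replicate 3 (0.0682). Adamtsl1 had 1, 0 and 1 counts in STAT6-labelled libraries, against 0, 8 and 3 in Mock-labelled ones, and Adamtsl3 had 1 count in all.

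**Figure D3:**
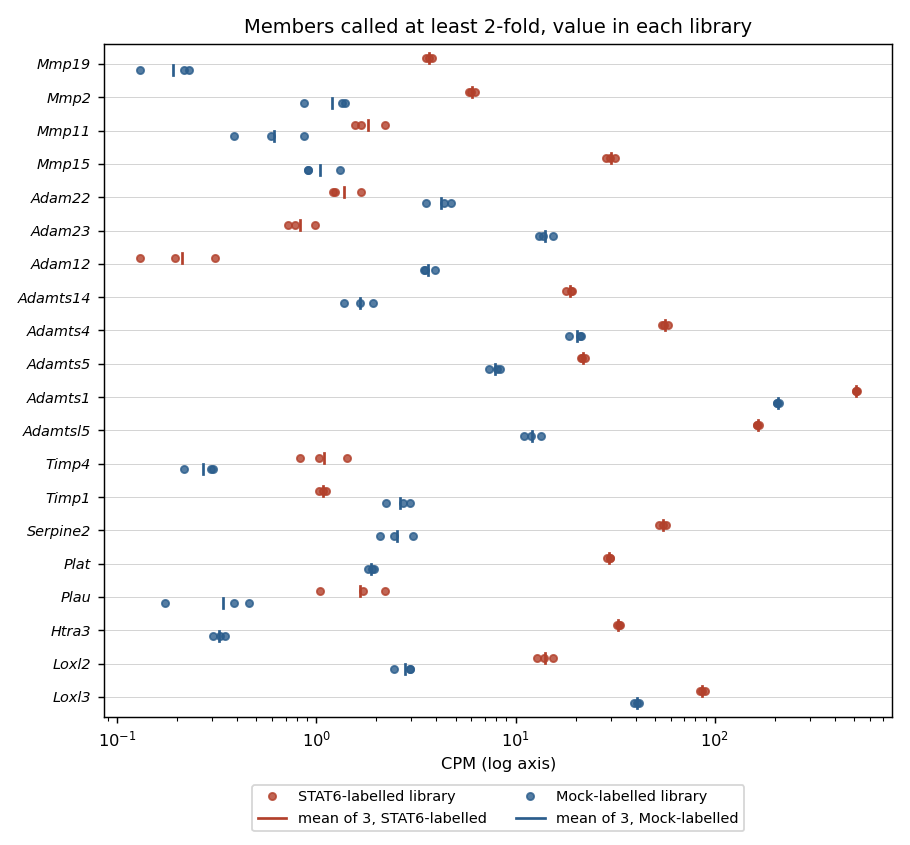
CPM in each library (points, log axis) and group mean (vertical ticks) of the 20 members called at least 2-fold that have a count in every library. STAT6-labelled libraries lie to the right of Mock-labelled ones in 16 genes and to the left in Adam22, Adam23, Adam12 and Timp1, and the 2 groups do not overlap in any row. That largely follows from the choice of rows, and 74.6% of all tested genes do not overlap. Htra3, Plau, Mmp19, Timp4 and Adam12 passed the filter only through the group where they are high.

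Of the inhibitors, Timp4 and Reck were higher, Timp1 and Timp2 lower, and Timp3 did not pass. Timp2, which inhibits MMP2 and also bridges pro-MMP2 to MT1-MMP, had 138, 145 and 145 CPM in the STAT6-labelled libraries, against 152, 151.5 and 161 CPM in the Mock-labelled ones. It was slightly lower without overlap (log2 fold change -0.12, SE 0.04, adjusted p = 0.00306, edgeR), and -0.19 with library totals alone. Timp3, the matrix-bound inhibitor that also blocks ADAM17 and the aggrecanases, had 38.4, 35.6 and 37.7 CPM in STAT6-labelled libraries, against 33.7, 37.9 and 34.2 CPM in Mock-labelled ones. These values overlapped (log2 fold change 0.08, SE 0.05, adjusted p = 0.169, edgeR), although without Mock replicate 2 the gene passed as higher (0.13, adjusted p = 0.0347).

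Timp1, which inhibits most secreted MMPs, had 26, 21 and 21 counts in STAT6-labelled libraries, against 63, 52 and 90 counts in Mock-labelled ones. It was lower in each STAT6-labelled library than in any Mock-labelled one (log2 fold change -1.29, SE 0.22, adjusted p = 2.62e-06, edgeR). Timp4 went the other way, with 33, 16 and 21 counts in STAT6-labelled libraries, against 5, 7 and 9 in Mock-labelled ones (log2 fold change 2.00, SE 0.37, adjusted p = 9.39e-06, edgeR). Reck, a membrane-anchored protein that restrains several MMPs and ADAM10, rose to 19.5 ± 0.154 CPM in the STAT6-labelled libraries, against 14.3 ± 1.38 CPM in the Mock-labelled ones (SD, n = 3 each, log2 fold change 0.45, adjusted p = 1.22e-06, edgeR). Summed over the 4 Timp genes and Reck, reads were at 198, 202 and 204.2 CPM in STAT6-labelled libraries, against 204.5, 205 and 212 CPM in Mock-labelled ones. The nearest values, 204.2 and 204.5 CPM, were almost equal, and the difference was not tested. Timp2 made up most of this sum, so it says little of the other inhibitors.

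Among the plasminogen activation genes, an activator and an inhibitor of it were both many times higher in the STAT6-labelled libraries. Plat, or tissue plasminogen activator, had 29.6, 29.9 and 28.9 CPM in the STAT6-labelled libraries, against 1.95, 1.81 and 1.90 CPM in the Mock-labelled ones. It was 15.6-fold higher (log2 fold change 3.96, SE 0.10, adjusted p = 8.77e-29, edgeR). Serpine2, protease nexin 1, which inhibits plasminogen activators and thrombin, had 52.6, 56.9 and 55.0 CPM in STAT6-labelled libraries, against 2.08, 3.06 and 2.45 CPM in Mock-labelled ones. It was 21.6-fold higher (log2 fold change 4.44, SE 0.09, adjusted p = 9.99e-32, edgeR). Neither gene's groups came near each other.

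Plau, or urokinase, was of low abundance, with 24, 43 and 35 counts in STAT6-labelled libraries, against 4, 9 and 14 counts in Mock-labelled ones (log2 fold change 2.21, SE 0.35, adjusted p = 9.51e-07, edgeR). Its receptor Plaur had 86, 97 and 87 counts in STAT6-labelled libraries, against 163, 169 and 244 counts in Mock-labelled ones, and was lower (log2 fold change -0.80, SE 0.13, adjusted p = 9.09e-07, edgeR). Urokinase and its receptor lay on opposite sides, each without overlap between the groups, as in 74.6% of all tested genes. Plau passed the filter only through the STAT6-labelled libraries, so its call was to be expected and no contrast with Plaur is drawn.

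Htra3, a secreted serine protease of the HtrA family, had the largest fitted rise of all members. It stood at 33.3, 32.9 and 32.2 CPM in the STAT6-labelled libraries, against 0.347, 0.302 and 0.327 CPM in the Mock-labelled ones, that is 771, 639 and 656 counts in STAT6-labelled libraries, against 8, 7 and 10 in Mock-labelled ones. The log2 fold change was 6.63 (SE 0.13, adjusted p = 1.64e-31, edgeR), or 99.2-fold. Htra1, the close relative with a similar domain order, had only 1, 4 and 3 counts in STAT6-labelled libraries, against 5, 1 and 6 in Mock-labelled ones, which overlapped.

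Of the lysyl oxidases, the founding gene Lox had no count in any library and Loxl1, the enzyme of elastic fibres, had 7 in all. Both scavenger-receptor-type members rose. Loxl2, which cross-links collagen IV, had 13.9, 12.9 and 15.4 CPM in the STAT6-labelled libraries, against 2.95, 2.46 and 2.94 CPM in the Mock-labelled ones (log2 fold change 2.33, SE 0.11, adjusted p = 2.40e-19, edgeR). Loxl3 had 84.3, 86.2 and 88.9 CPM in STAT6-labelled libraries, against 39.1, 40.8 and 41.9 CPM in Mock-labelled ones (log2 fold change 1.09, SE 0.04, adjusted p = 4.27e-22, edgeR). The groups were separate in both genes.

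Ratios of 2 members within a library do not depend on its depth, and 8 were compared after the values were known. They are ratios of counts, not corrected for transcript length, so that only the change between groups can be read. Adam10 had 4.09, 4.02 and 3.98 counts for each count of Adam17 in the STAT6-labelled libraries, against 2.15, 2.31 and 2.20 in the Mock-labelled ones, a log2 difference of 0.86. Mmp2 relative to Timp2 was at 0.0423, 0.0412 and 0.0434 in STAT6-labelled libraries, against 0.00914, 0.00569 and 0.00834 in Mock-labelled ones, a log2 difference of 2.48. Mmp14 relative to Timp2 shifted far less, by 0.32 on the log2 scale. The aggrecanases gained on Timp3, by 1.39 for Adamts4 and 1.38 for Adamts5. Adamts1 gained 2.19 on Adamts20, and Mmp15 gained 4.66 on Mmp14. Plat, in contrast, lost 0.49 against Serpine2, at 0.564, 0.526 and 0.525 in STAT6-labelled libraries, against 0.938, 0.592 and 0.773 in Mock-labelled ones. All 8 ratios separated the groups completely, which gives p = 0.1 for each, the smallest that a 2-sided exact permutation test over 20 assignments can reach (0.1 after Benjamini-Hochberg adjustment over the 8). Because the pairs were chosen with the values known, this separation was close to fixed and the test adds no support. Taken singly, 74.6% of all tested genes did not overlap between the groups.

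**Figure D4:**
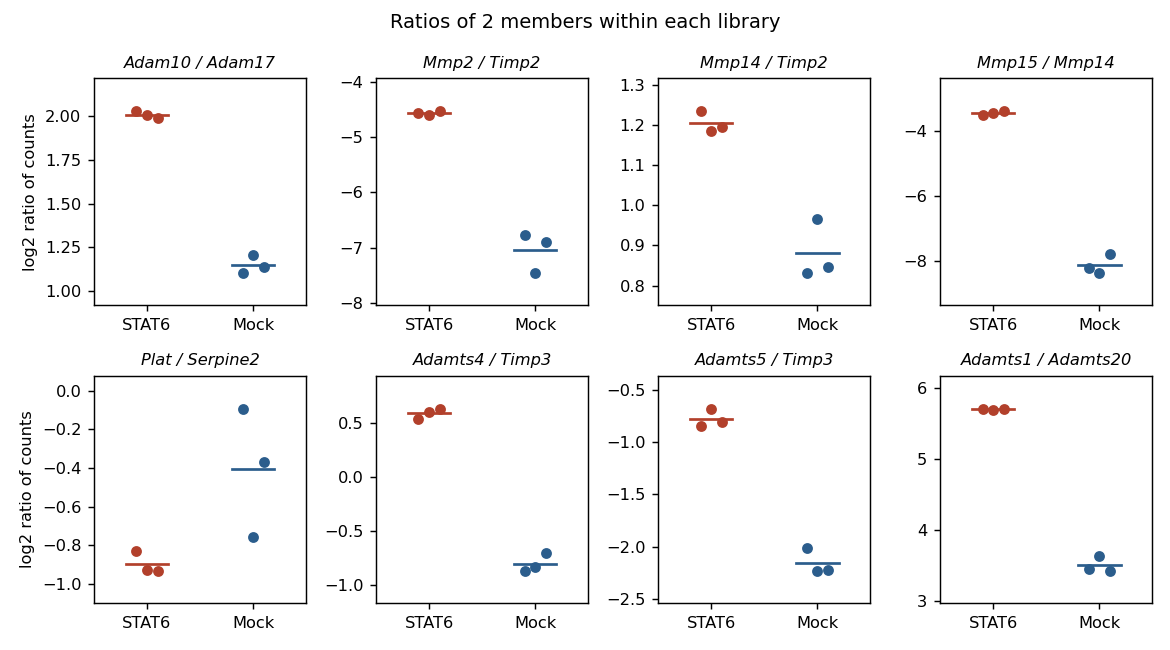
Log2 ratio of the counts of 2 members in each library (points) with the group mean (line), STAT6-labelled left and Mock-labelled right; vertical scales differ between panels. Adam10 rises relative to Adam17 by 0.86 and Mmp15 relative to Mmp14 by 4.66, Plat falls relative to Serpine2 by 0.49, and in each panel the groups do not overlap. The pairs were chosen after the values were known, so this separation is no support.

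Genes around the members were read from 6 lists holding 149 symbols, of which 92 were tested. Of these 92, 67 were higher, 17 were lower and 8 did not pass, and the median was 0.62 on the log2 scale. Of all tested genes 35.8% were higher and 36.8% lower, or 72.6% called in either direction. The counts of each list are to be read against these shares. They include genes that passed the filter only through the group where they were high, and such genes must differ. The lists too were chosen with earlier results of these data known, so part of any excess may reflect that choice. The plasminogen list had 7 higher and 0 lower of 10. The clearance receptor Lrp1 (1.67), the plasminogen-binding Anxa2 (1.29) and Tfpi (0.91) were among those higher, as log2 fold changes. The list of other matrix-active proteases had 7 higher and 4 lower of 12. Prss23 (2.61), the procollagen C-proteinase Bmp1 (2.12), the hyaluronidase Hyal1 (1.74) and the sulfatase Sulf2 (0.45) were higher, and Ece1 (-1.44), Mme (-0.53), Htra2 (-0.33) and Dpp9 (-0.12) lower, as log2 fold changes.

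Lysosomal cathepsins and cystatins had 12 higher and 1 lower of 13 (median log2 fold change 1.03), against 35.8% higher and 36.8% lower of all tested genes. Ctsb (2.22), Ctsl (1.03) and the inhibitors Cst6 (1.77) and Cstb (1.12) were among those higher, and Ctsc (-0.32) was the one that fell. Activators and partners of MMPs and ADAMs had 12 higher and 3 lower of 17. Papln (4.19), a matrix protein related to the ADAMTS proteins, the ADAM10 partner Tspan15 (1.87) and Cd44 (0.60) were higher, and so was the MMP inducer Bsg, at 754 CPM in STAT6-labelled libraries, against 327 CPM in Mock-labelled ones (adjusted p = 8.26e-28, edgeR). Tspan10 (-0.39) and Tspan5 (-0.47), which also belong to the tetraspanins that escort ADAM10, were lower. Of the genes whose proteins carry ADAM17 to the surface, Rhbdf1 was higher (log2 fold change 1.11, adjusted p = 9.40e-19, edgeR), as was their partner Frmd8 (0.68, adjusted p = 7.93e-15, edgeR), and Rhbdf2 did not pass (0.02, adjusted p = 0.857, edgeR).

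Membrane proteins that ADAMs cut had 18 higher and 4 lower of 24 (median log2 fold change 1.26), again against 35.8% and 36.8% of all tested genes. Among the 18 were Epha2, Il6ra, Notch3, Notch4, Tnf and Ptk7, each with a mean under 0.443 CPM in the Mock-labelled libraries. These genes passed the filter only through the STAT6-labelled libraries, so their calls raise the count and the median without measuring the list. Axl (3.92), Tgfa (3.96), L1cam (1.38) and Jag1 (2.29) were higher and Mertk (-0.59), Notch2 (-0.67), Alcam (-0.40) and Cdh2 (-0.17) lower. The list of lysyl oxidase and elastic fibre partners had 11 higher and 5 lower of 16. Loxl4, the lysyl oxidase outside the set, was at 12.3 CPM in STAT6-labelled libraries, against 0.321 CPM in Mock-labelled ones (log2 fold change 5.27, adjusted p = 2.01e-23, edgeR). It passed the filter only through the STAT6-labelled libraries. Postn (4.21), Fn1 (1.90) and Ltbp4 (3.76) were higher too, while Fbln1 (-0.54), the collagen chaperone Serpinh1 (-0.32), Pcolce (-0.37) and Ltbp1 (-3.91) were lower. Ltbp1 passed the filter only through the Mock-labelled libraries.

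Fibroblasts and macrophages make many of these genes, and their markers were measured beside them. The 10 fibroblast markers summed to 82.0 to 88.1 CPM in the STAT6-labelled libraries and 35.1 to 36.0 CPM in the Mock-labelled ones. Among them 6, Col3a1, Dcn, Lum, Fap, Thy1 and Twist2, were at or near 0 in both groups. Of the rest Col1a1 was higher, at 80.0, 81.1 and 75.2 CPM in STAT6-labelled libraries, against 4.47, 5.30 and 4.78 CPM in Mock-labelled ones, whereas Col1a2 was at 2.29, 2.11 and 2.01 CPM in STAT6-labelled libraries, against 15.1, 12.3 and 12.8 CPM in Mock-labelled ones, and Pdgfrb at 3.97, 3.09 and 3.43 CPM in STAT6-labelled libraries, against 15.1, 16.2 and 17.2 CPM in Mock-labelled ones. The 10 macrophage and leukocyte markers summed to 3.82 to 5.00 CPM in STAT6-labelled libraries, against 1.80 to 2.17 CPM in Mock-labelled ones, with 6 at or near 0 and Adgre1 and C1qa at 0. The 8 endothelial markers summed to 2.25 to 2.84 CPM in STAT6-labelled libraries, against 0.948 to 1.43 CPM in Mock-labelled ones, with Cdh5, Emcn and Cldn5 at 0, and 6 keratinocyte markers to 4.02 to 5.10 CPM in STAT6-labelled libraries, against 1.05 to 2.89 CPM in Mock-labelled ones. The part of other cells in the results above was not tested.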

How the data were processed

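Per the labels' protocols, libraries for RNA-seq came from a stranded mRNA kit. The authors deposited 1 whole-number count per gene symbol and library, with no normalized value. Tools named, without versions, in the submitters' processing notes are FastQC, STAR, Salmon and edgeR, with the build GRCh37; for the counting step, strand setting and filters, nothing is given in the sources used here. No mouse genome or sequence was used, so no coordinates or sequences are printed.

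The deposited counts were fitted unchanged (edgeR 4.0.16, R 4.3.3): filterByExpr by group (minimum count 10), TMM, glmQLFit (robust), 2-sided glmQLFTest on group without covariates, and p-values adjusted by Benjamini-Hochberg over 12938 genes, called at 0.05. A fold change is STAT6-labelled over Mock-labelled, the SE is its size divided by the square root of F, and CPM are relative to the TMM-scaled library total. TMM factors were 0.968 to 1.03. Within a group, the median chi-square between 2 libraries was 1.46 to 2.48 times counting noise, more than a split of the same reads would give. That cannot tell separate cultures from separate preparations of the same culture. Each library was fitted as a replicate. For a group at 0, a bound was taken at 3 counts in that group; intervals and floors cover counting error only. The script was tested on simulated counts.

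Values in each library are given for members called at least 2-fold with a mean of 5 CPM or more and for members not past the threshold at 20 CPM or more; others appear by fold change or counts, untested ones by counts from 10 in all, and of each related list up to 4 genes a direction by adjusted p. Genes outside this rule were chosen after their values were seen. The members and lists were chosen with earlier results of these data known, and the ratios after the values were seen. Alternatives were other scalings and filters, DESeq2 1.42.0, limma-voom (limma 3.58.1), the replicate block, a 0.01 threshold, a test beyond 1.5-fold and each library left out. Some genes of the related lists are not reported here.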

Additional observations from a re-analysis of the deposited data

How the results depend on the processing

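Of the 32 members called, 30 kept their direction and call with DESeq2 size factors, library totals alone, no filter, a filter of 1 CPM in 3 libraries, DESeq2, limma-voom, the replicate block and each library left out, wherever they were fitted; Adamts6 and Adamtsl2 did not. Mmp28 and Timp4, counted among the 30, and Adamtsl2 were removed by the filter of 1 CPM and have no value there. Adamts6 was lost with library totals alone (adjusted p = 0.0561) and DESeq2 (0.0629), Adamtsl2 with no filter (0.056), DESeq2 (0.084) and limma-voom (0.0527), besides the left-out libraries named above. Calls gained were Adam17 under 4 alternatives, Adamtsl4 under 2, and Adam9, Adamts12, Adamts13 and Timp3 under 1 each. The signs of Adam11 (-0.51 to 0.41) and Adam1a (-0.79 to 0.32), neither called, changed when a library was left out; the cause was not tested. Member counts ran from 22 to 26 higher and from 8 to 9 lower in these fits. A test for a change beyond 1.5-fold called 19 of the 42 tested members higher and 6 lower, and 42 related genes higher and 4 lower. Of all 12938 tested genes it called 2779, 1807 higher (14.0%) and 972 lower (7.51%). This test asks for more than a difference. Library totals alone shifted the median of all genes by -0.07 (log2). With the replicate block 24 members were higher, 8 lower and 9422 genes called in all, the same labels for each member; deviations of same-numbered libraries correlated at 0.19, 0.21 and -0.04 over genes, so the numbers were not taken as pairs, and STAT6 replicate 3 did not correlate best with its own number. Genes with few counts, such as the 54 untested members, are limited by depth: a difference there was mostly not detectable.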
